A study of Arabidopsis thaliana with 6 samples.

Results

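Plastids make part of their own proteins on ribosomes of bacterial type, with a small 30S and a large 50S subunit. The ribosomal RNAs and some ribosomal proteins are encoded in the plastid genome, and the remaining proteins are made in the cytosol from nuclear genes and imported. Besides relatives of bacterial ribosomal proteins, the particle holds plastid-specific ribosomal proteins (PSRPs), which were first described in spinach. Chloroplast ribosomes translate core subunits of the photosystems and the large subunit of Rubisco.

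The genes described here are 35 nuclear loci of Arabidopsis thaliana, 12 for proteins of the 30S and 23 for proteins of the 50S subunit, out of 18206 genes with assigned reads. They form a list of loci for plastid ribosomal proteins, including PSRP2 to PSRP6, that is defined by the encoded protein and not by a threshold on the measured levels. All 35 were found in the RefSeq gene table, where 27 have a symbol of their own, and all 35 passed the filter on low counts. Proteins are written by the names of their bacterial relatives, so that S9 stands for the plastid protein encoded by AT1G74970 and L29 for the one encoded by AT5G65220. The genes lie on chromosomes 1 (12 genes), 2 (5), 3 (10), 4 (1) and 5 (7).

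Col-0 seedlings were raised on agar plates in constant white light at 22°C for 1 to 2 weeks and then spent 48 h in darkness. Light samples (3 libraries) came from seedlings moved back into light for the next 6 h, and Dark samples (3 libraries) from seedlings left in darkness for those 6 h, so both groups share the long dark period. Each plate carried 30 seeds, but nothing in the labels ties a replicate to its own plate or sowing. The p-values therefore rest on the variation from library to library, part of which may be technical. RNA 3' ends were read by 3'READS+, which sequences the end of each RNA just before its poly(A) tail and so gives both an RNA level and the position of the poly(A) site.

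Totals were 13196815 to 13513571 reads in Light and 13355548 to 14534166 in Dark, and the members had 1525 to 42766 reads each. The leaf gene RBCS1A and the root and hypocotyl gene PYK10 were abundant in every library, at 8463 ± 782 and 7167 ± 587 CPM in Light and 3249.8 ± 459 and 1626 ± 474 CPM in Dark. CPM are read counts divided by the normalised library size, the usual scale for such tables, and values with ± are means with the SD over the 3 libraries of a group unless an SE is named. The epidermal gene ATML1 stood at 35.5 ± 2.69 CPM in Light and 52.0 ± 0.789 CPM in Dark, and the phloem gene SUC2 at 2.54 ± 0.637 CPM in Light and 1.75 ± 0.666 CPM in Dark. Transcripts of the seed storage proteins CRA1 and SESA1 stood apart in 1 library, with 104 and 89 reads in Light replicate 1 against 3 or fewer in each of the other 5 libraries. Whether these differences in RNA level reflect the tissue make-up of the samples was not tested, nor was the part of tissue make-up in the results below. In bulk seedling RNA, fewer cells of a type and less RNA per cell cannot be told apart.

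Most genes for plastid ribosomal proteins were more abundant in Light than in Dark, but the list did not move as a block. In edgeR's quasi-likelihood test, with a threshold of 0.05 on p adjusted over 16767 genes, the call was higher for 21 of the 35 members and lower for 7, while the remaining 7 did not pass. Of all genes tested, 37.4% were called higher and 35.6% lower, 72.9% in either direction. The members' median log2 change was 0.40, a 1.32-fold rise, against 0.04 over all genes. Their changes spread less than those of all genes: their quartiles were -0.07 and 0.78 on the log2 scale, against -0.82 and 0.98 for all genes. No comparison with genes of like read numbers was made. By at least 2-fold, 7 of the 35 members were called higher and 2 lower. Over all genes the shares were 24.5% and 20.9%, so the rises lay near the share of all genes.

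These directions are relative to TMM factors, which place the middle of all genes near 0. With libraries scaled by their totals alone, the median of all genes shifted by 0.45 on the log2 scale, and 26 members were called higher and 2 lower, so that 92.9% of called members were higher against 75% in the TMM fit. Over all genes the share of higher among called genes was 68.3% with totals and 51.3% with TMM. The gap between the members' median and that of all genes was 0.36 with either scaling.

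**Figure D1:**
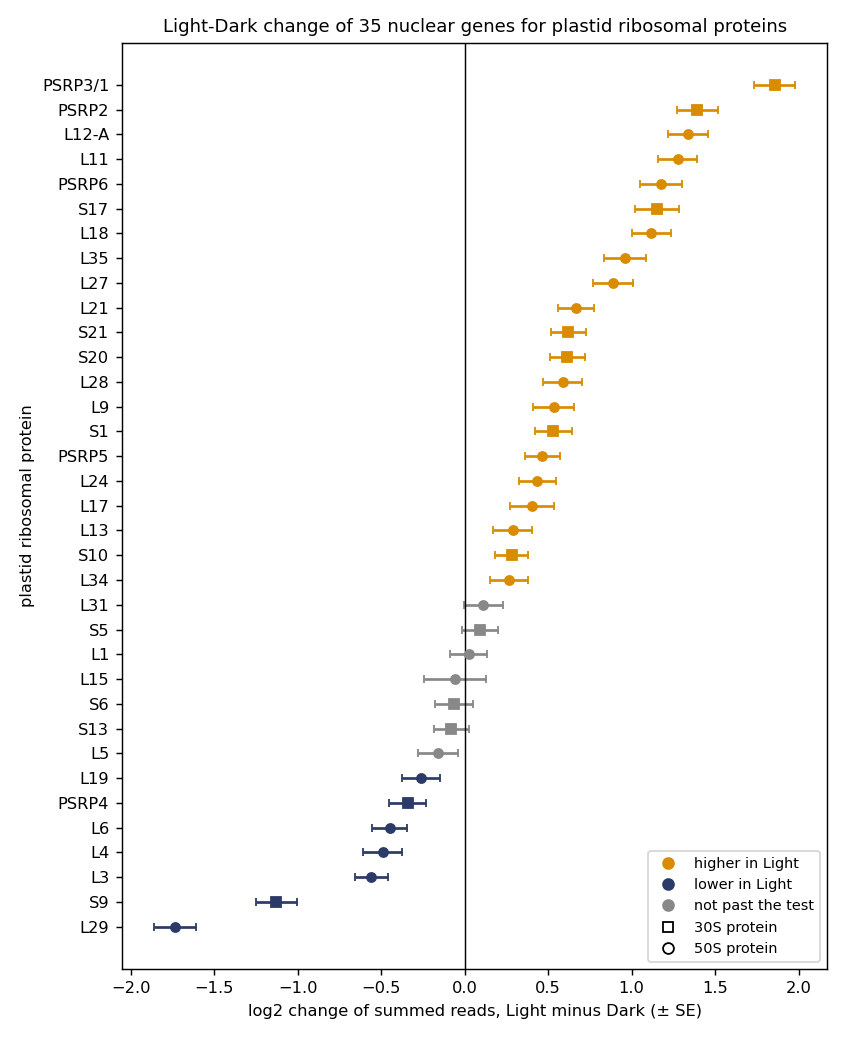
Log2 change of summed reads, Light minus Dark, with its standard error for each of the 35 members, ordered by size; squares mark 30S and circles 50S proteins, and colours the call. The changes run from 1.86 for PSRP3/1 to -1.74 for L29, and proteins of both subunits occur in each call.

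Rises and falls occurred among the genes of both subunits, and the difference between the subunits was not tested. Of the 12 genes for 30S proteins, 7 rose, 2 fell and 3 did not pass, with a median log2 change of 0.41. Of the 23 genes for 50S proteins, 14 rose, 5 fell and 4 did not pass, with a median of 0.40. The ratio of summed 50S to summed 30S CPM was 1.99, 1.98 and 2.06 in Light and 2.08, 2.03 and 2.00 in Dark. These ratios overlapped between the groups. Summed over all members, the level was 6532, 7348 and 6104 CPM in Light and 5569, 5415 and 5208 CPM in Dark, with every Light library above every Dark library.

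Among the plastid-specific proteins, which have no counterpart in the standard set of bacterial ribosomal proteins except the Thx-like PSRP4, 4 of 5 rose. The same call was made for 21 of all 35 members and 37.4% of all genes. PSRP3/1 (AT1G68590), a 30S protein, had the largest rise of the list, with 84.0, 109 and 89.8 CPM in Light and 26.6, 25.7 and 25.7 CPM in Dark. The groups were far apart, with a log2 change of 1.86 ± 0.12 (SE, edgeR, adjusted p = 8.69e-09), or 3.62-fold. PSRP2 (AT3G52150), a 30S protein with RNA recognition motifs, had 60.3, 66.2 and 51.3 CPM in Light and 22.0, 23.3 and 22.4 CPM in Dark. Its lowest Light library was far above its highest Dark library, and the change was 1.39 ± 0.12 on the log2 scale (SE, adjusted p = 1.55e-07 by the same edgeR test).

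PSRP6 (AT5G17870), a protein of the 50S subunit, had 272, 265 and 202 CPM in Light and 112, 115 and 100.4 CPM in Dark, a 2.26-fold rise with Light replicate 3 lowest of its group. PSRP5 (AT3G56910), also of the 50S subunit, rose only 1.38-fold, to 166 ± 6.83 CPM in Light against 121 ± 9.77 CPM in Dark. PSRP4 (AT2G38140), the relative of bacterial Thx in the head of the 30S subunit, went the other way, with 34.7, 37.8 and 32.2 CPM in Light and 43.3, 43.0 and 46.5 CPM in Dark. Its groups did not overlap and its log2 change was -0.34 ± 0.11 (SE, adjusted p = 0.0126 by edgeR), but the sign was positive when libraries were scaled by totals (0.11, adjusted p = 0.386). Without Dark replicate 3 the call was lost at adjusted p = 0.0526. The second PSRP3 gene, PSRP3/2 (AT5G15760), which is not a member, was nearly silent at 1.14 ± 0.0744 CPM in Light and 1.15 ± 0.225 CPM in Dark.

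**Figure D2:**
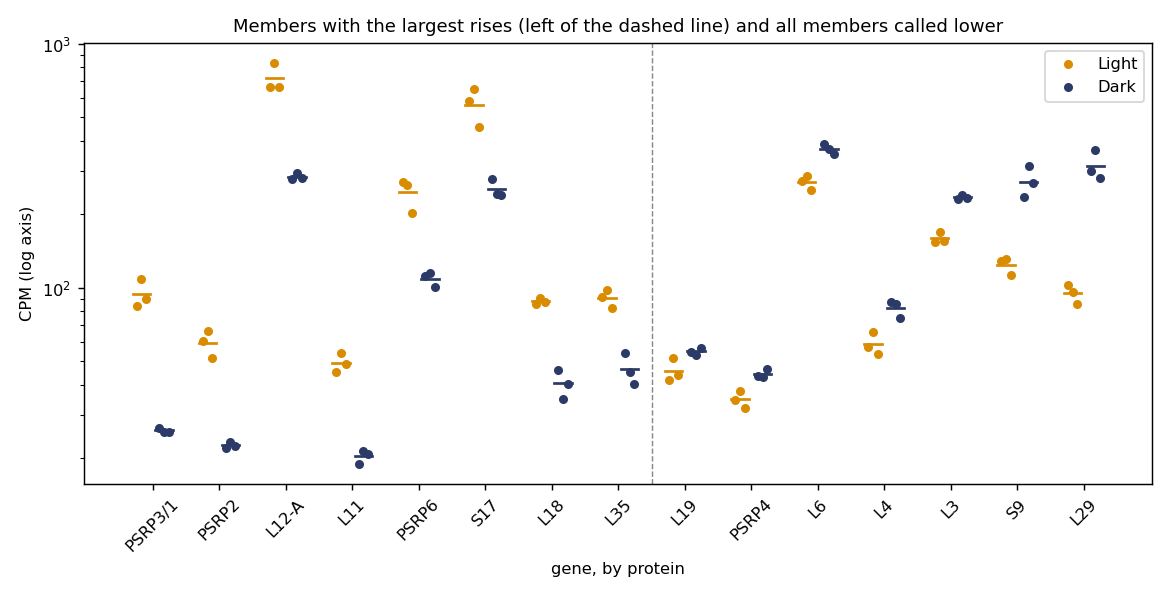
CPM on a log axis in each library (points) with the group mean (bar), for the 8 members with the largest rises, left of the dashed line, and the 7 called lower, right of it. No Light library overlaps a Dark library in any of the 15 genes, which were picked by the test of level, so this is a description. Over all genes tested, the groups did not overlap in 75.7%.

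Among the 50S proteins, L12 and L11 belong to the stalk, where translation factors dock, and their genes did not all pass the test. L12-A (AT3G27830), 1 of 3 genes for the flexible stalk protein L12, had 663, 835 and 662 CPM in Light and 278, 296 and 281 CPM in Dark. All Light libraries were far above all Dark libraries, a rise of 2.53-fold (log2 change 1.34 ± 0.12, SE, adjusted p = 1.46e-07 by edgeR). Its sister L12-C (AT3G27850), not a member, stood at 248 ± 25.5 CPM in Light and 259.9 ± 30.1 CPM in Dark, and did not pass (adjusted p = 0.615 by edgeR). For L12-B (AT3G27840) no read was assigned. The L12 genes are close relatives, and how reads that match more than 1 of them were placed is not given in the sources used here. Of the L12-A reads, 1595 lay at positions that the gene shares with AT3G27831.

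L11 (AT1G32990), at the base of the stalk, had 45.3, 54.0 and 48.7 CPM in Light and 18.97, 21.4 and 20.8 CPM in Dark, a 2.42-fold rise with wide separation of the groups. L10 (AT5G13510), which anchors L12 to the stalk and is not a member, was likewise 2.42-fold higher, at 289 ± 19.6 CPM in Light and 119 ± 11.2 CPM in Dark. L12-A, L11 and L10 rose by 2.42- to 2.53-fold, and L12-C did not pass. L1 (AT3G63490), the protein of the opposite stalk, at which spent transfer RNA leaves, did not pass, at 167, 187 and 147 CPM in Light and 163, 173 and 157 CPM in Dark.

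The other large rises were those of S17, L18 and L35. S17 (AT1G79850), which in bacteria binds 16S ribosomal RNA early in 30S assembly, had 580.0, 653 and 455 CPM in Light and 278, 241 and 240.3 CPM in Dark, a 2.22-fold rise. The Light libraries spread by a wider margin than the Dark libraries, with replicate 3 lowest. L18 (AT1G48350), which binds 5S ribosomal RNA in bacteria, had 85.7, 90.9 and 87.3 CPM in Light and 46.0, 35.1 and 40.5 CPM in Dark, a 2.17-fold rise. Of its 5432 reads, 5424 lay where the gene overlaps AT1G48355 in the gene table, so the rise belongs to L18 only if these ends do. L35 (AT2G24090) had 91.6, 97.4 and 82.6 CPM in Light and 53.9, 45.3 and 40.4 CPM in Dark, a 1.95-fold rise. Among these 8 members the largest adjusted p was 8.59e-06 by edgeR.

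A further 12 genes rose by 1.20- to 1.85-fold besides PSRP5. L27 (AT5G40950), which in bacteria reaches towards the peptidyl transferase centre, was at 135 ± 15.7 CPM in Light and 73.1 ± 6.83 CPM in Dark, and L21 (AT1G35680) at 554 ± 62.2 CPM in Light and 349.6 ± 4.51 CPM in Dark. S21 (AT3G27160), the product of GHS1, whose loss makes seedlings hypersensitive to glucose, rose 1.54-fold. S1 (AT5G30510), whose bacterial relative binds messenger RNA at initiation, rose 1.44-fold, and L24 (AT5G54600), which in bacteria nucleates 50S assembly, 1.35-fold. S20, L28, L9, L17, L13, S10 and L34 rose 1.53-, 1.50-, 1.45-, 1.32-, 1.22-, 1.21- and 1.20-fold. The 4 smallest of these calls were the least secure. L34 (AT1G29070) and L13 (AT1G78630) lost theirs without Light replicate 2 (adjusted p = 0.22 and 0.0793 by edgeR), as did S10 (AT3G13120, 0.0981) and L17 (AT3G54210, 0.0915). All 4 also lost it without Dark replicate 3, at adjusted p = 0.162, 0.115, 0.103 and 0.0741. L34 also lost it without Light replicate 1 or Dark replicate 1, and L13 without Light replicate 3 or Dark replicate 2, at adjusted p of 0.0885 to 0.13.

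Against this majority, L29 and S9 were clearly less abundant in Light. L29 (AT5G65220), which in bacteria sits at the exit of the peptide tunnel, had 102, 95.6 and 86.0 CPM in Light and 300.1, 366 and 281 CPM in Dark. The groups were far apart, and the log2 change was -1.74 ± 0.12 (SE, adjusted p = 1.85e-08 by edgeR), 3.33-fold lower in Light. S9 (AT1G74970), whose tail in bacteria touches the transfer RNA in the P site, had 128, 131 and 113 CPM in Light and 234, 314 and 267 CPM in Dark. The S9 values of the groups were likewise well apart, with a log2 change of -1.13 ± 0.12 (SE, adjusted p = 1.40e-06 by edgeR). Both kept their call in all 13 alternative fits, at log2 changes of -1.83 to -1.28 for L29 and -1.25 to -0.67 for S9. About 9.20% of all genes had a more negative log2 change than L29, and 18.4% than S9.

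The other 5 members called lower changed by no more than 1.47-fold. L3 (AT2G43030), an early assembly protein near the peptidyl transferase centre in bacteria, had 154, 169 and 155 CPM in Light and 231, 240.3 and 234 CPM in Dark. L4 (AT1G07320), which in bacteria lines the peptide tunnel, had 57.2, 66.0 and 53.4 CPM in Light and 87.6, 86.1 and 74.8 CPM in Dark. For both, all Light libraries lay below all Dark libraries, at 1.47- and 1.41-fold lower levels in Light. L6 (AT1G05190) had 275, 288 and 252 CPM in Light and 389, 369 and 355 CPM in Dark. L19 (AT5G47190), which in bacteria takes part in the contact between the subunits, had 41.7, 51.5 and 43.9 CPM in Light and 54.7, 53.1 and 56.8 CPM in Dark. The highest L19 value in Light came within 2 CPM of the lowest in Dark, and its call, at adjusted p = 0.0493 by edgeR, was lost without any 1 of Light replicates 1 and 3 and Dark replicates 1 and 3 (adjusted p = 0.0572 to 0.171). Scaled by library totals, L3, L4, L6, L19 and PSRP4 did not pass, and the sign of L6, L19 and PSRP4 was positive.

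The 7 members that did not pass were L31, S5, L1, L15, S6, S13 and L5, with log2 changes between -0.16 and 0.11. L31 (AT1G75350) stood at 507, 578 and 449 CPM in Light and 503, 484 and 434 CPM in Dark. S6 (AT1G64510) had 304, 366 and 301 CPM in Light and 368, 314 and 332 CPM in Dark. S13 (AT5G14320), which like S9 reaches the P site in bacteria, had 199, 222 and 180.4 CPM in Light and 215, 211 and 210.3 CPM in Dark. The groups overlapped in all 7 genes, while they did not overlap in any of the 28 that were called. Over all genes, 39.2% had every Light library above every Dark library and 36.6% every one below, 75.7% in all.

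**Figure D3:**
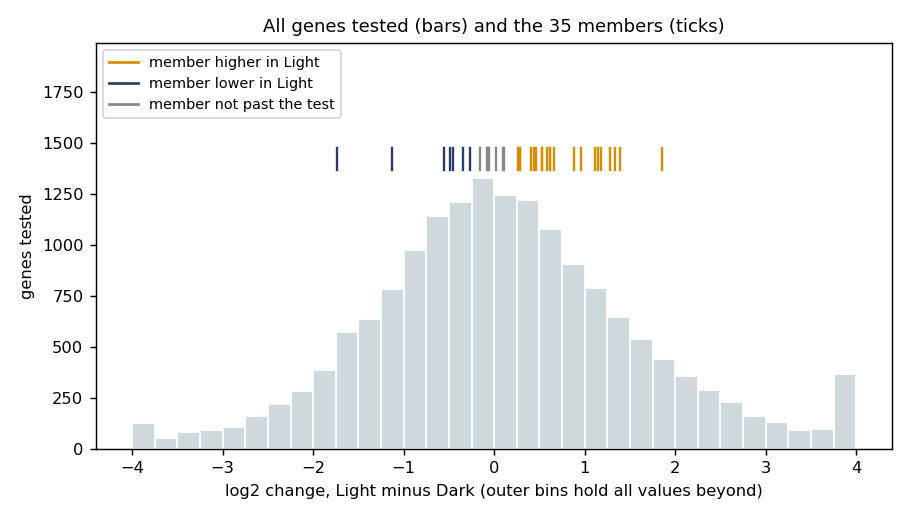
Number of genes tested by log2 change, Light minus Dark, in bins of 0.25 (bars; the outer bins hold all values beyond 4 in size), with a tick above for each of the 35 members, coloured by call. The members span -1.74 to 1.86 and lie inside the bulk of all genes.

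The members varied together among the Light libraries. Light replicate 2 was the highest of its group in 30 of 35 members and Light replicate 3 the lowest in 25, whereas these libraries were highest and lowest in 32.7% and 36.7% of all genes. In Dark, replicate 1 was the highest in 20 members and replicate 3 in 3, against 37.4% and 25% of all genes. Without Light replicate 2, 17 members were higher and 7 lower, and the median log2 change was 0.29. Without Dark replicate 3, 17 were higher and 5 lower. Leaving out any other library gave 20 higher and 6 or 7 lower.

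The 4 members with the most reads from the opposite strand of their span were L15 (3379 reads), L1 (2504), S13 (695) and PSRP3/1 (615). L15 (AT3G25920) had only 1525 reads of its own and stood at 17.8, 17.3 and 20.6 CPM in Light and 26.2, 14.5 and 17.4 CPM in Dark. On the other strand of the same span there were 12.9, 14.3 and 14.3 CPM in Light and 83.0, 72.7 and 80.0 CPM in Dark. L1 had 15.2, 14.1 and 12.7 CPM on the other strand in Light and 53.1, 50.6 and 56.0 CPM in Dark. In both cases all Dark libraries were above all Light libraries on the opposite strand, while the gene's own level did not pass the test. In both genes 0 of these reads lay in the 50% of the span nearest the gene's start, so they lay towards its 3' end. Whether they are 3' ends of a neighbouring gene on the other strand was not tested. For S13 the opposite strand had 9.19 ± 0.476 CPM in Light and 7.82 ± 2.02 CPM in Dark, and for PSRP3/1 6.76 ± 1.69 CPM in Light and 8.70 ± 1.78 CPM in Dark, with overlapping groups in both. Opposite-strand reads were not counted for the members. Neither their share over all genes nor the share of genes without overlap on the opposite strand was computed.

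Genes that act with the plastid ribosome were read beside it. Among 14 plastid translation factors the test called 9 higher and 3 lower, and 2 missed it, with a median log2 change of 0.61. Over all genes, 37.4% were called higher and 35.6% lower, with a median of 0.04. The largest rises were those of IF2 (AT1G17220), which brings the initiator transfer RNA, at 15.9 ± 0.923 CPM in Light and 5.35 ± 0.830 CPM in Dark, and of EF-G (AT1G62750), which drives translocation, at 14.6 ± 1.44 CPM in Light and 5.13 ± 0.626 CPM in Dark. The largest falls were those of PSRP1 (AT5G24490) and of an IF3-like gene (AT4G30690). PSRP1, despite its name, is not a ribosomal protein proper but a relative of bacterial factors that bind idle ribosomes. It stood at 71.6 ± 9.12 CPM in Light and 278 ± 46.6 CPM in Dark, 3.88-fold lower in Light (adjusted p = 1.86e-08 by edgeR). EF-Tu (AT4G20360), the carrier of aminoacyl transfer RNA, did not pass, with 483 ± 67.7 CPM in Light and 485 ± 74.2 CPM in Dark.

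Of 11 factors for assembly and RNA processing of the plastid ribosome, 8 were higher in Light, none was lower and 3 did not pass, with a median log2 change of 1.26. The shares over all genes were 37.4% higher and 35.6% lower, and 72.9% were called in either direction. SOT1 (AT5G46580), a pentatricopeptide protein that protects the 23S-4.5S precursor, had the largest change, at 13.7 ± 0.174 CPM in Light and 1.96 ± 0.746 CPM in Dark, a 7.0-fold rise. ObgC (AT5G18570), a GTPase of the 50S subunit, rose 5.65-fold. At an unadjusted p under 0.05 there was 1 factor with a lower level in Light, DER (AT3G12080), a GTPase of ribosome assembly, with 12.1 ± 0.232 CPM in Light and 15.2 ± 2.34 CPM in Dark (adjusted p = 0.0639 by edgeR). The difference between these factors and the members was not tested.

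Poly(A) sites of the members were mostly concentrated. A member had 4 to 17 clusters of adjoining 3' ends, and its most used cluster held a median of 81.3% of its reads (28.4 to 98.7%). A site was counted when it held at least 5% of its gene's reads. By that measure 8 members had 1 site and 27 had several, spread over 25 to 348 nt with a median of 67 nt. Only PSRP2, L11, L4, L15 and L27 had under 50% of their reads at the most used site. L4 had the most sites and the widest span, with 6 sites over 348 nt. PSRP2 had the lowest share at its leading site, with 5 sites over 237 nt of which the leading one, at chr3:19343331 on the plus strand of TAIR10, held 28.4%. L31 was the most focused, with 98.7% of its reads in 1 cluster. These percentages are of all reads of a gene. The site shares by library or group given below are percentages of the reads at the gene's counted sites only.

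The choice among these sites differed between Light and Dark in 9 of the 27 members that could be tested, 33.3%, where 25.7% of all 11070 genes tested did so (diffSpliceDGE of edgeR, Simes' method, threshold 0.05 on adjusted p). The genes were L27, L28, PSRP2, S10, L6, L4, L34, L24 and L1. Of these, 8 also passed the test of level, and L1 did not. With libraries scaled by totals, L1 passed that test as higher (log2 change 0.48, adjusted p = 0.00107 by edgeR), while L4 and L6 did not pass (adjusted p = 0.754 and 0.992). In 7 of the 9 the mean 3' end lay farther downstream in every Light library than in any Dark library, in L4 farther upstream, and in PSRP2 the groups overlapped. Downstream displacement was also the usual direction elsewhere, in 72.6% of all genes with changed usage, against 17.6% upstream.

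**Figure D4:**
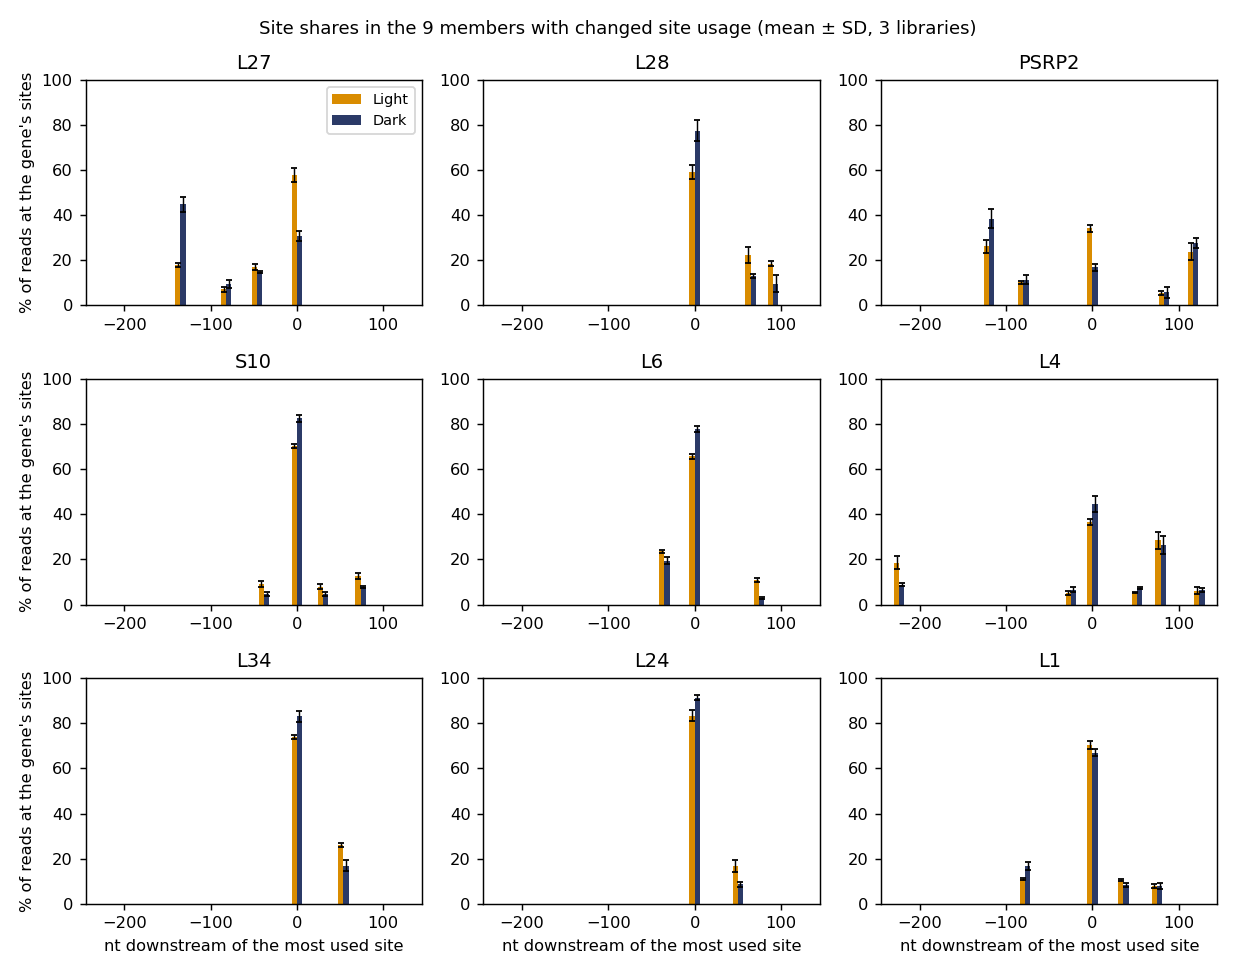
Share of each site in the reads at the gene's counted sites (mean ± SD, 3 libraries a group) against its distance in nt from the most used site, positive downstream, for the 9 members with changed site usage. In L27 and PSRP2 a different site leads in Light and in Dark.

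Of the 9, L27 had the largest displacement of the mean 3' end, and its leading site differed between the groups. Its downstream site at chr5:16412073 (plus strand) held 61.4, 55.1 and 57.2% of the reads at its sites in Light and 28.1, 32.0 and 32.2% in Dark. The site 135 nt upstream, at 16411938, held 16.8, 17.96 and 18.5% in Light and 48.2, 41.6 and 44.8% in Dark. Thus the downstream site led in all Light libraries and the upstream site in all Dark libraries. The adjusted p of the gene was 7.91e-08, and the mean 3' end lay 37.5 nt farther downstream in Light.

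In L28 (AT2G33450) the main site at chr2:14174491 (plus strand) lost share, with 62.2, 58.7 and 56.0% in Light and 78.4, 81.4 and 72.5% in Dark. The sites 65 and 91 nt downstream took up the difference, at 22.5% ± 3.49 and 18.6% ± 0.912 in Light and 12.9% ± 0.800 and 9.65% ± 3.83 in Dark. PSRP2 had a different pattern, in which the middle site led in all Light libraries and the site 120 nt upstream in all Dark libraries. The middle site held 35.3, 32.2 and 34.98% in Light and 16.9, 18.3 and 15.3% in Dark, while the upstream one fell to 26.2% ± 2.84 in Light against 38.5% ± 4.24 in Dark. The adjusted p was 0.00703 for L28 and 3.21e-04 for PSRP2, both by edgeR's usage test.

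In L6 the main site at chr1:1502379 (minus strand) held 66.0, 66.7 and 64.4% in Light and 77.5, 79.0 and 76.5% in Dark. A minor site 75 nt downstream held 11.1, 9.68 and 11.4% in Light and 2.45, 3.10 and 3.01% in Dark. The minor site had the larger relative change, and the gene had the lowest adjusted p of the members (5.88e-11 by edgeR), although with sites of at least 10% of the reads, which leaves this one out, L6 did not pass (adjusted p = 0.061). S10 spread in both directions from its main site, which held 69.3, 70.9 and 70.9% in Light and 82.8, 80.7 and 83.9% in Dark. L34 and L24 each have 2 sites, 54 and 50 nt apart. Of the reads at the 2 sites of L34, the downstream one held 26.8, 25.3 and 26.0% in Light and 14.4, 19.03 and 17.2% in Dark. In L24 it held 14.4, 16.0 and 19.5% in Light and 7.39, 9.44 and 9.15% in Dark.

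L4 was the exception in direction. A site 224 nt upstream of its main site held 21.05, 19.2 and 15.3% in Light and 8.45, 8.34 and 9.44% in Dark, so its share was higher in every Light library while the level of the gene was lower in Light (adjusted p = 1.34e-04 by edgeR's usage test). In L1 the site 78 nt upstream of the main one fell to 11.1% ± 0.589 in Light against 16.6% ± 1.72 in Dark. Its call was lost without Light replicate 1 (adjusted p = 0.0681) or Dark replicate 1 (0.0754).

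**Figure D5:**
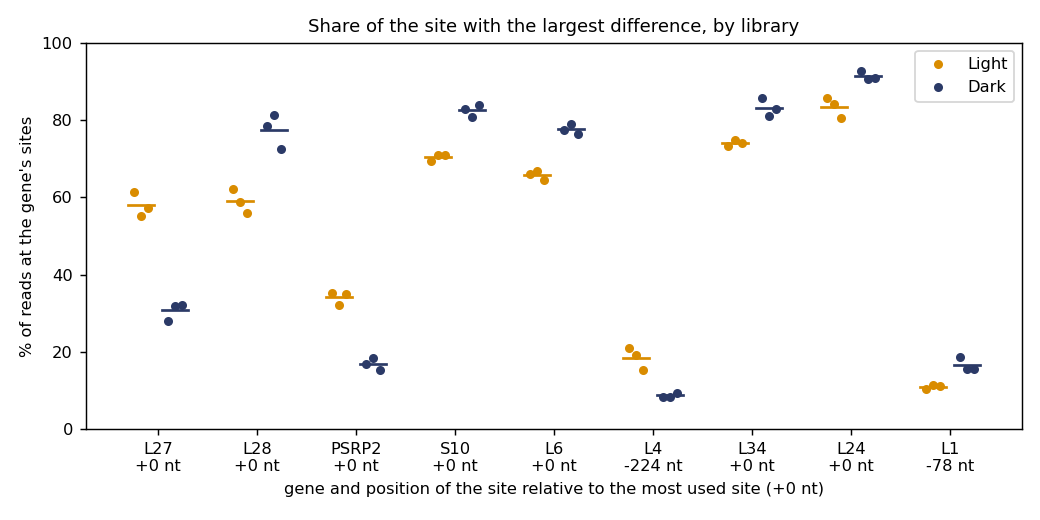
Share of the site with the largest Light-Dark difference in the reads at the gene's counted sites, for the 9 members with changed site usage. Points are libraries and bars group means, and the label gives the site's distance from the most used site. The sites were picked for their difference, so the separation of the groups is shown as a description; the sites picked likewise in 6 of the 18 members that did not pass were also without overlap.

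Of the 18 other members tested, 2 came near the threshold. L11 had adjusted p = 0.0715, with its leading site at 29.5% ± 1.74 in Light and 42.9% ± 3.55 in Dark, and L35 had adjusted p = 0.0552, with its downstream site at 11.4% ± 1.09 in Light and 16.6% ± 1.81 in Dark. For PSRP3/1, L29 and S9, which had the largest rise and the largest falls in level, site usage did not pass. At its site 45 nt downstream of the main one, PSRP3/1 had 29.4% ± 0.411 of the reads at its sites in Light and 28.01% ± 4.94 in Dark. L29 had 19.3% ± 1.07 in Light and 21.4% ± 1.47 in Dark at its site 25 nt upstream. For S9 the share of the main site was 82.8% ± 1.60 in Light and 86.0% ± 1.28 in Dark (adjusted p = 0.345).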

How the data were processed

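The authors deposited 1 table of raw read counts per poly(A) site cluster, library and strand. The build TAIR10 and the aligner Bowtie2 come from the submitters' processing notes. How clusters were built is not given here. Of 217870 clusters, 164075 with 97.0% of reads were assigned to protein-coding genes of a RefSeq table on TAIR10.1, used for names and spans. That table has no strand, so a gene's strand was taken from reads at its ends (at least 20 reads, 90% on 1 strand), which resolved all members. Clusters on that strand, in the gene or up to 200 nt past its end, were summed. Members kept clusters shared with another gene; other genes did not.

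Counts were tested with edgeR 4.0.16 in R 4.3.3 (TMM, filterByExpr, quasi-likelihood test, Light minus Dark, Benjamini-Hochberg over all genes), and site usage with diffSpliceDGE on sites with at least 5% of a gene's reads. DESeq2 1.42.0 was an alternative. In data simulated with 1 common dispersion, 85.0% of 2-fold and 96.0% of 4-fold changed genes (100 each, of 16473) were recovered at the gene level. Few genes were changed there, whereas 72.9% of genes were called in the data. For site usage 200 of 200 genes (of 10850) were recovered, but their 2 largest sites exchanged shares in full. These rates check the procedure and do not give the power for the members or for smaller shifts in site share. SEs are those implied by the F statistic. Each read marks 1 RNA 3' end, and CPM are not scaled by length. Members, lists and the rule for named genes (all members; values by library for the 8 largest rises, all falls and changed sites) were chosen with earlier results of these data known. Promoter motifs were not analysed here.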

Additional observations from a re-analysis of the deposited data

How the results depend on the processing

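The alternative without shared clusters was chosen after seeing the data. Over the 13 gene-level alternatives, 17 of the 21 members called higher and 2 of the 7 called lower (L29 and S9) kept their call; L18 had too few reads for a test without shared clusters, where 20 members were higher and 7 lower. Scaling by library totals left 2 members lower, and moved S6 to 0.39, S13 to 0.37, PSRP4 to 0.11, L5 to 0.29, L6 to 0.0011, L15 to 0.39 and L19 to 0.19 on the log2 scale, all below 0 in the TMM fit; S5, S6, S13, L1 and L31 then passed as higher. Without normalization factors 8621 of all genes were higher and 4009 lower, against 6268 and 5961. DESeq2 gave 20 higher and 6 lower, as did the fit without a filter on low counts; both lost L19 and L34. Windows of 0 and 500 nt past the gene end gave 21 higher and 6 or 7 lower. Leaving out each library in turn gave 17 to 20 higher and 5 to 7 lower, with L1 between -0.063 and 0.11 and L15 between -0.23 and 0.20. Site usage was called in 8 to 11 members over all alternatives, and the gene-wise F-test added L11 and L35. With shares taken over all clusters of a gene, the lead-site difference moved by less than the larger group SD in 24 members and by more in 3. Without single libraries the lead-site difference of S13 lay between -0.565 and 0.241 points, that of PSRP3/1 between -1.26 and 3.64 and that of PSRP6 between -0.922 and 0.0492. With the replicate block, 21 members were higher, 6 lower (L19 lost, adjusted p = 0.0565 by edgeR) and 9 had changed usage. Deviations from the group means correlated at 0.0546, 0.00025 and 0.0726 between same-numbered libraries. Light replicates 1 and 3 correlated best with the Dark library of the same number, and Light replicate 2 with Dark replicate 1 (0.0165). Deviations within a group of 3 depend on each other, so these values cannot settle whether the libraries were paired. The cause of the changes between Light and Dark was not tested. Depth limits L15 most, with 1525 reads.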
